A study of Mus musculus with 15 samples.

Results

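IL6Myc-4 is 1 of 5 mouse myeloma cell lines that were derived from IL6Myc mice and profiled by RNA sequencing, and its transcriptome is described here against that of the other 4 lines. Its members are the 3 libraries that the labels assign to it, out of 15 in the series, and every gene was compared between these 3 libraries and the mean of the line means of IL6Myc-1, IL6Myc-2, IL6Myc-3 and IL6Myc-5. All 5 lines carry the genotype label IL6Myc, which is shared by the lines compared, and the labels give neither the promoters and alleles behind it nor the age, sex or treatment of the mice. No untransformed plasma cell or other control was part of the comparison. Since the 3 libraries of a line are technical replicates, each line is 1 biological unit, and the p-values below measure the spread between libraries and not the spread between independently derived lines. In such bulk RNA, fewer cells with a transcript and less transcript per cell cannot be told apart.

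Multiple myeloma is a cancer of plasma cells, the antibody-secreting end stage of the B cell lineage, which lives in the bone marrow and depends on adhesion, chemokine and IL6 signals. The Hedgehog pathway, which holds several of the largest differences of IL6Myc-4, is a developmental signalling route. Its ligands bind the receptor Patched, which otherwise holds the membrane protein Smoothened inactive, and Smoothened in turn releases the GLI transcription factors from SUFU, usually at the primary cilium. Gli1 and Ptch1 are themselves transcribed in response to GLI proteins and are commonly read as the output of the pathway.

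The IL6Myc-4 libraries held 26163997, 23993309 and 24547152 estimated counts, within the range of 19068543 to 41165599 over all 15. Levels are CPM, estimated counts divided by TMM-scaled library sizes and given as mean ± SD (n = 3 libraries), and they are compared within a gene and not between genes. A count of 0 over the 3 IL6Myc-4 libraries allows a level of up to 0.0375 CPM (3 counts over the line, counting error only). The line carried plasma cell transcripts: Irf4 was at 1093 CPM, Xbp1 at 1902 CPM, Prdm1 at 196 CPM and Sdc1 at 582 CPM, while Pax5, a B cell factor that plasma cells switch off, had 0 counts. Myc was at 1370 ± 14.6 CPM in IL6Myc-4 against 1028 to 1526 CPM in the other lines (log2 difference 0.07, edgeR adjusted p = 0.230), and the mouse Il6 gene had 0 counts in all 15 libraries. On log2(CPM + 1) values the libraries of IL6Myc-3 and IL6Myc-5 lay nearest to IL6Myc-4, at mean Euclidean distances of 67.1 and 67.4, those of IL6Myc-2 and IL6Myc-1 at 83.5 and 84.5, and the IL6Myc-4 libraries lay 20.9 from each other.

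Of 11773 genes tested, 622 (5.28%) were called higher and 514 (4.37%) lower in IL6Myc-4 than the mean of the other lines, at an edgeR adjusted p under 0.05 and a log2 difference of at least 1 (9.65% in either direction). Because that mean can be moved by 1 line, a stricter count asked for the same call against each of the other 4 lines singly, comparisons that share the IL6Myc-4 libraries. This left 156 genes higher (1.33%) and 161 lower (1.37%), together 2.69%. The libraries of IL6Myc-4 lay above all 12 others for 9.05% of the tested genes and below them for 6.72%. Against single lines the calls were 1152 higher and 692 lower for IL6Myc-1, 665 and 980 for IL6Myc-2, 698 and 661 for IL6Myc-3, and 649 and 683 for IL6Myc-5.

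Among the Hedgehog genes, the receptor Ptch1 and the transcription factors Gli1 and Gli3 were all 3 higher in IL6Myc-4 than in each other line. Of the cytoplasmic regulators 11 of 11 tested were not called, where 9.65% of all genes tested were called in either direction. Gli1 read 986, 894 and 993 CPM in the 3 libraries of IL6Myc-4, while the 12 other libraries ran from 0.0693 over a median of 0.660 to 1.38 CPM. The IL6Myc-4 level of 958 ± 55.2 CPM was 793-fold that of the highest other line, IL6Myc-3 (log2 difference from the mean of the others 10.96, edgeR adjusted p = 8.1e-23). A ± on a log2 difference below is an approximate SE, the difference divided by the square root of the edgeR F statistic. It can understate the error where a line has few counts, and it is left out for such genes. Gli1 was near 0 in each of the 4 other lines. That its groups did not overlap was a condition for the named genes below, of which it is 1. Of all genes tested, 9.05% had their IL6Myc-4 libraries above all 12 others. Ptch1, which codes for the ligand receptor, read 468, 470 and 448 CPM against 39.8 to 55.1 CPM, with a median of 49.9, in the other libraries. It was expressed in all 5 lines, and the level in IL6Myc-4 was 8.68-fold that of the next line (log2 difference 3.25 ± 0.03, edgeR adjusted p = 3.58e-20). Gli3, the family member that acts mostly as a repressor in the absence of ligand, read 17.7, 16.9 and 16.8 CPM. It had 0 counts in IL6Myc-1, IL6Myc-3 and IL6Myc-5 and was at 0.265 CPM in IL6Myc-2. The transcript was thus seen at 5 CPM or more in IL6Myc-4 alone (edgeR adjusted p = 4.76e-12). Gli3 passed the filter of 1 CPM in 3 libraries through IL6Myc-4 alone, so its call was partly set by the filter. Gli2 went another way: it was at 4.05 CPM in IL6Myc-5, at 0.0256 CPM in IL6Myc-4 and at 0 counts in the other 3 lines.

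Smo, the gene of Smoothened, was at 0.0512 ± 0.0886 CPM, with counts in 1 of the 3 IL6Myc-4 libraries, and at no more than 0.0619 CPM in the other lines, too low to be tested. Shh had 0 counts in all 15 libraries, Dhh had 0 counts in IL6Myc-4, and Ihh was at 0.136 CPM. The co-receptor genes Boc and Gas1 had 0 counts in IL6Myc-4, and Cdon, at 1.35 ± 0.868 CPM, was not called. Disp1, which codes for the transporter that releases ligand, was the 1 pathway gene called lower: 4.71, 4.76 and 4.80 CPM against 5.99 to 21.3 CPM elsewhere (log2 difference -1.39 ± 0.13, edgeR adjusted p = 1.13e-07). Sufu, the inhibitor of GLI proteins, was at 27.6 ± 2.68 CPM against 20.8 to 25.0 CPM in the other lines (log2 difference 0.28), and Kif7, its ciliary partner, at 4.48 ± 0.110 CPM within the range of the others. Hhip, the ligand-binding inhibitor that is usually induced with Ptch1, had 0 counts.

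Over all 22 tested members of the Hedgehog list, 5 were called higher (22.7%, beside 5.28% of all genes tested) and 1 lower (4.55%, beside 4.37%). Their median log2 difference was 0.10 against -0.000859 for all genes tested. The remaining calls were among genes known elsewhere as GLI targets. Spp1, which codes for osteopontin, was higher at 3.46 ± 0.527 CPM against at most 1.21 CPM in another line. Jag2, a Notch ligand, read 4.71, 1.97 and 4.07 CPM, overlapped the other libraries, and lost its call without replicate 1 of IL6Myc-4 or without IL6Myc-3. Bcl2 (14.4 CPM, log2 difference -0.49) and Cdk6 were not called, and Ccnd1, Mycn, Foxf1 and Sfrp1 were at or near 0 CPM in IL6Myc-4. Foxf2, a forkhead gene outside the list that was picked out after its values were seen, was at 104 ± 1.11 CPM against 2.13 to 15.8 CPM. Among 27 tested genes of the primary cilium, 1 was called higher and 1 lower (3.70% each, near the shares of all genes tested). Bbs2, a subunit of the BBSome, averaged 38.9 ± 2.03 CPM and at most 10.8 CPM elsewhere, and Kif3a, a motor of ciliary transport, was at 4.92 CPM against 8.23 to 12.3 CPM, a call that was lost without IL6Myc-2.

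**Figure D1:**
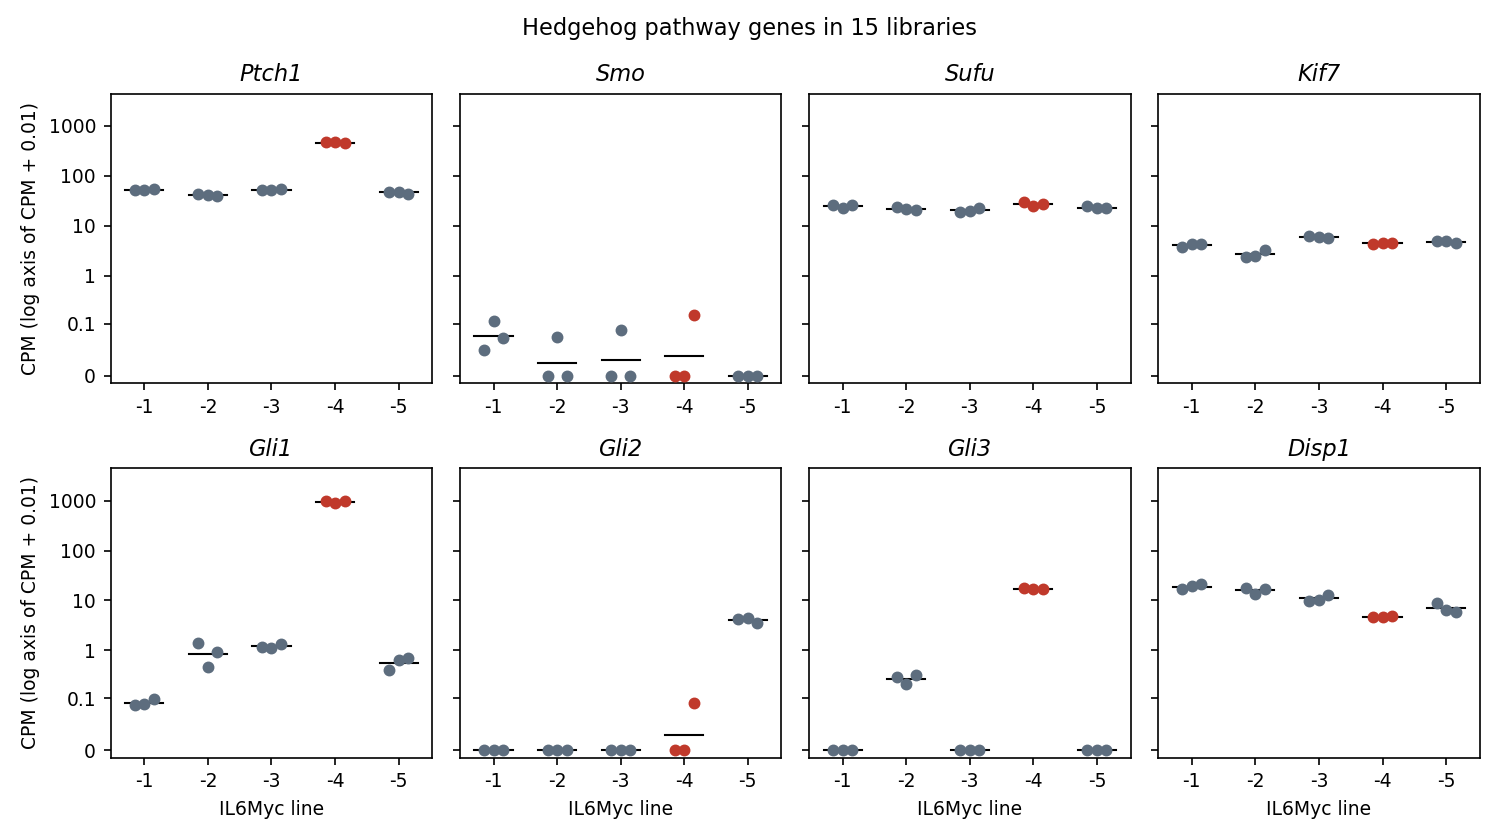
CPM of 8 Hedgehog pathway genes (vertical log axis of CPM + 0.01) in the 3 libraries of each IL6Myc line (points; red for IL6Myc-4, the short bar is the mean on that log scale). Gli1, Gli3 and Ptch1 stand apart in IL6Myc-4 at 958, 17.1 and 462 CPM, Gli2 is seen at 4.05 CPM in IL6Myc-5, and Smo is near 0 in every line.

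Promoter sequence was read for the named genes because GLI proteins bind a short DNA motif. In RefSeq promoters of GRCm38.p6, the 300 bases around a gene's start, the GLI site GACCACCCA was present in 0.253% of 32851 promoters and its core ACCACCC in 4.61%, on either strand. Of the 15 genes named below as higher, 10 had a promoter entry, Gli3 among them, as had 12 of the 15 named as lower, and 0 of them held the core. Gli1 had no promoter entry, so its promoter was not read. Ptch1, which is not among those named genes, also had 0 matches to the core, and Gli2, which was near 0 in IL6Myc-4, held 1. No match says only that these letters are absent from this window. The 250 bases before the start are shown for 4 genes that carry the main contrasts, 2 of the Hedgehog pathway, the chemokine receptor gene Cxcr3 and Rnf130, which had 0 counts in IL6Myc-4. Capitals mark the GC box GGGCGG or its reverse complement CCGCCC, a motif chosen after the values were seen and held by 35.7% of all promoters.
Ptch1 (chr13:63565736-63565985, minus strand): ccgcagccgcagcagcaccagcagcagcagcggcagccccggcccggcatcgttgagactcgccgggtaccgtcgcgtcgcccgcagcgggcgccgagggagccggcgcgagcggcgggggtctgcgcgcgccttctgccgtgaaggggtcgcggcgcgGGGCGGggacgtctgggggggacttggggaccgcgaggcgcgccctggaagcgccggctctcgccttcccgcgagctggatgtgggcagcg
Gli3 (chr13:15463473-15463722, plus strand): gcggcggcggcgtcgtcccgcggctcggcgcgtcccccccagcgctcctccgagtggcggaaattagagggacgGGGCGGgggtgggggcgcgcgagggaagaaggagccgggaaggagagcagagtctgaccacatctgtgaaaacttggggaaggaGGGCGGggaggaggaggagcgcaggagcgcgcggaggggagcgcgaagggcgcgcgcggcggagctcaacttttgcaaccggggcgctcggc
Cxcr3 (chrX:101734148-101734397, minus strand): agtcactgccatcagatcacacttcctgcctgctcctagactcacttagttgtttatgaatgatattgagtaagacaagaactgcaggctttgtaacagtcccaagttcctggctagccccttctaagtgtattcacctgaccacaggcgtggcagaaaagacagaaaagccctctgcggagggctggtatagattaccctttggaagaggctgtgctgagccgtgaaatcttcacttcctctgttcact
Rnf130 (chr11:50025081-50025330, plus strand): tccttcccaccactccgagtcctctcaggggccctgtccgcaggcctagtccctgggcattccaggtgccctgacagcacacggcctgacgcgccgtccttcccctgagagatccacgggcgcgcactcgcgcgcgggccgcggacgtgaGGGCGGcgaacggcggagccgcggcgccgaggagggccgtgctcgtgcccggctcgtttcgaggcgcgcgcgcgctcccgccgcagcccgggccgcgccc
The promoters of Ptch1, Gli3 and Rnf130 were rich in CpG, with 47, 39 and 49 CG pairs in 300 bases, where the median over all promoters was 7. The Cxcr3 promoter held 4. Cyyr1, also high in IL6Myc-4, held 6, and Igfbp3, missing from it, 37.

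The genes that stood highest in IL6Myc-4 are taken as the 15 largest log2 differences among 96 eligible genes called against each line, with all 3 libraries above the 12 others and at least 5 CPM: Cyyr1, Gli1, Gli3, Cxcr3, Ano9, Agt, Pcsk5, Abca4, MAGEA13, Shtn1, Satb1, Mras, Tbx15, Esyt3 and Mmrn1. Cxcr3, the receptor for the interferon-induced chemokines CXCL9 and CXCL10, read 133, 134 and 135 CPM against 0 to 1.05 CPM, with a median of 0.272, elsewhere (log2 difference 9.51, edgeR adjusted p = 3.58e-20). No library of another line came near the IL6Myc-4 level. Cxcr3, Ano9 and Tbx15 had means under 1 CPM in every other line and passed the filter of 1 CPM in 3 libraries through IL6Myc-4. Their higher calls were thus partly set by the filter. Mras, a GTPase related to RAS, read 141, 141 and 151 CPM against 0.0764 to 3.74 CPM. Cyyr1, a gene for a small membrane protein, read 29.6, 31.1 and 29.1 CPM, with 0 counts in IL6Myc-2 and IL6Myc-3 and at most 0.105 CPM in IL6Myc-1 and IL6Myc-5. That their IL6Myc-4 libraries lay above all 12 others was a condition for being named. Ano9, of the anoctamin family of membrane proteins, was at 38.4 ± 3.0 CPM, and the next line, IL6Myc-2, at 0.919 CPM. Satb1, a chromatin organiser of lymphocytes, was at 10.6 ± 0.994 CPM and was also seen in IL6Myc-3, at 4.05 CPM. MAGEA13 (12.6 CPM), of the melanoma antigen family, and Shtn1 (7.39 CPM) were likewise seen in IL6Myc-3, at 3.29 and 2.83 CPM. Reads of MAGEA13 could be shared with close relatives, so its level is uncertain.

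A transcript was counted as seen in a line alone when it was at 5 CPM or more there and under 0.5 CPM in each other line. For IL6Myc-4 this gave 7 genes: Cyyr1, Gli3, Esyt3, Mmrn1, Pcsk5, Agt and Abca4. These 7 passed the filter of 1 CPM in 3 libraries through IL6Myc-4 alone. Agt, the precursor of angiotensin, was at 5.18 ± 0.147 CPM and had 0 counts in IL6Myc-1, IL6Myc-2 and IL6Myc-5. Pcsk5, a proprotein convertase, was at 7.77 ± 0.626 CPM, and Abca4, a lipid transporter best known from the retina, at 5.01 ± 0.398 CPM. Mmrn1, which codes for the platelet protein multimerin, was at 8.73 ± 0.0933 CPM. Esyt3, a protein of membrane contact sites, varied more between libraries, at 12.6, 11.02 and 6.83 CPM. The same count was 5 for IL6Myc-1, 21 for IL6Myc-2, 2 for IL6Myc-3 and 0 for IL6Myc-5. Tbx15, a T-box transcription factor at 9.21 ± 0.468 CPM, missed it because IL6Myc-3 was at 0.609 CPM.

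Genes missing from IL6Myc-4 included a ubiquitin ligase and a binding protein of insulin-like growth factors. Missing was counted as under 0.5 CPM in IL6Myc-4 and 5 CPM or more in each other line, which 6 genes met: Lratd2, Igfbp3, Dnajc6, Tspan5, Rnf130 and 4930406D18Rik. The count was 18 for IL6Myc-1, 5 for IL6Myc-2, 0 for IL6Myc-3 and 2 for IL6Myc-5. Rnf130 had 0 counts in all 3 IL6Myc-4 libraries and 5.49 to 35.3 CPM, with a median of 6.49, in the others, so that it was at least 153-fold lower than in the nearest line. Igfbp3 read 0, 0 and 0.0384 CPM, 1 count in all, against 9.38 to 35.2 CPM elsewhere (log2 difference -10.01, edgeR adjusted p = 4.1e-16). Lratd2 read 0, 0.0387 and 0.0384 CPM against 13.3 to 49.4 CPM. These 3, and Dnajc6 and Tspan5, are also among the named genes, for which no overlap between IL6Myc-4 and the other libraries was a condition. Dnajc6, the auxilin that uncoats clathrin vesicles, was at 0.175 CPM against 6.66 to 12.4 CPM, and Tspan5, a tetraspanin, at 0.348 CPM against 5.87 to 21.6 CPM.

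The other named genes on the lower side were Rasgrp3, H2-Q7, Klra17, Dock11, Aldh7a1, Ggh, Dennd4c, Trpc6, Sh3bgrl2 and Platr10, out of 35 eligible. Rasgrp3, which loads RAS proteins with GTP downstream of the B cell receptor, read 0.964, 1.28 and 1.04 CPM against 6.76 to 215 CPM, the top of that range being IL6Myc-2 at 209 CPM. Aldh7a1, an aldehyde dehydrogenase of lysine breakdown, read 5.54, 6.19 and 5.60 CPM against 52.0 to 88.1 CPM elsewhere (log2 difference -3.57 ± 0.06, edgeR adjusted p = 8.67e-18). Its level was similar in the other 4 lines, so that the difference did not come from 1 of them. Ggh, the hydrolase that trims folate polyglutamates, was at 3.35 ± 0.295 CPM against 28.1 to 62.3 CPM. Dock11, an exchange factor for CDC42, was at 1.29 CPM against 6.22 to 29.8 CPM, and Trpc6, a cation channel, at 1.19 CPM against 8.71 to 11.6 CPM. Klra17, of the Ly49 receptor family whose members resemble each other closely, was at 1.83 CPM against 6.26 to 189 CPM.

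**Figure D2:**
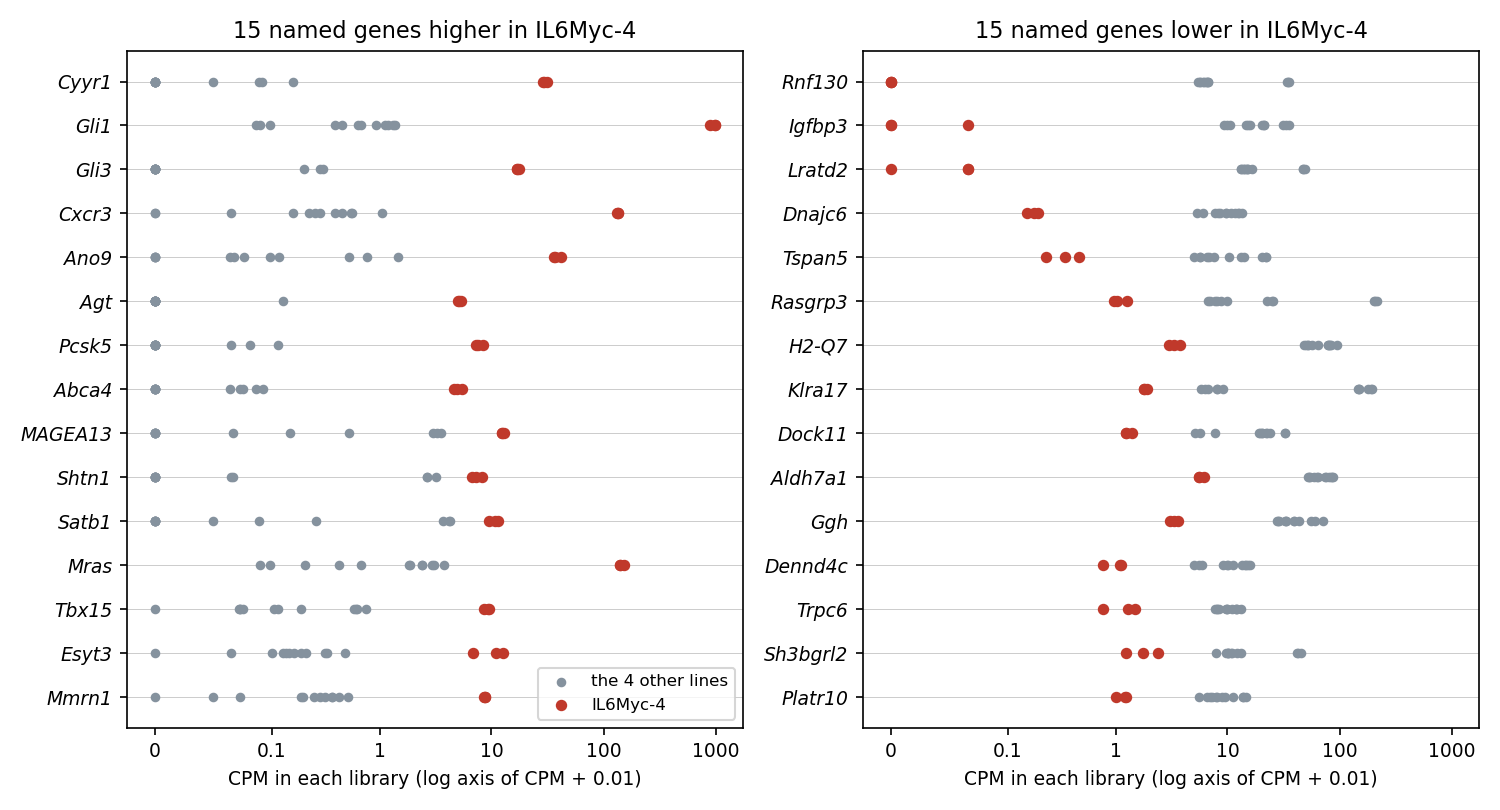
CPM in each library (horizontal log axis of CPM + 0.01) for the 15 named genes higher (left) and the 15 lower (right) in IL6Myc-4, with red points for its 3 libraries and grey points for the 12 others. In every row the red points lie outside the grey ones, as the rule for naming required. Gli1 stands near 1000 CPM in IL6Myc-4 and Rnf130 at 0.

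The receptor of IL6 and the kinases behind it were next, since IL6 acts through IL6RA, the shared chain IL6ST (gp130), JAK kinases and STAT3. In IL6Myc-4 both receptor chains and the JAK family kinase Tyk2 were higher, with 6 of 39 tested members of the list called higher (15.4%, beside 5.28% of all genes tested) and 1 lower (2.56%, beside 4.37%) and a median log2 difference of 0.14. Tyk2 read 302, 289 and 293 CPM against 40.95 to 85.4 CPM, with a median of 57.3, and its level was 3.49-fold that of the next line (log2 difference 2.33 ± 0.03, edgeR adjusted p = 3.49e-19). Il6ra read 47.2, 52.8 and 44.6 CPM against 13.1 to 22.5 CPM. Both genes were called higher against each line singly (1.33% of all genes tested were), and their IL6Myc-4 libraries lay above all others (9.05% of all genes tested did so). Il6st was at 282 ± 7.19 CPM against 108 to 156 CPM elsewhere (log2 difference 1.11). Il13ra1, a receptor chain for IL13, was at 125 CPM against 19.5 to 90.6 CPM, a call lost without IL6Myc-2, and Il4ra, its partner for IL4, was lower at 3.39 CPM against 5.49 to 14.5 CPM. Stat4 (12.7 CPM) was called higher but not without IL6Myc-1 or without IL6Myc-2, and Socs2, a feedback inhibitor, was higher at 19.3 CPM against at most 13.8 CPM. Stat3 was at 116 CPM, within the range of the other lines, Socs3 at 8.33 CPM was not called, Jak2 at 76.2 CPM was below the 102 to 114 CPM of the others without reaching the size of a call, and Jak1 was counted at no more than 0.517 CPM in any line, a level of which the table cannot tell whether it is one of expression or of counting.

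Of the chemokine and sphingosine receptors, 8 genes passed the filter, with 1 (12.5%) called in each direction: Cxcr3 higher and Ccr2 lower. Cxcr3 passed the filter through IL6Myc-4, so its higher call and that share were partly set by the filter. The shares of all genes tested were 5.28% higher and 4.37% lower. Ccr2, the receptor for CCL2, was at 0.163 ± 0.0256 CPM against 0.714 to 2.02 CPM. Cxcr4, which retains plasma cells in the marrow, was at 97.5 ± 1.15 CPM, within the 87.8 to 141 CPM of the other lines. Of 34 tested adhesion genes 7 were called higher (20.6%, beside 5.28% of all genes tested) and 2 lower (5.88%, beside 4.37%), with a median log2 difference of 0.50. The IL6Myc-4 libraries lay above all others for 13 members (9.05% of all genes tested did so), but 0 members were called higher against each line singly. Itgb5, a vitronectin receptor subunit, read 207, 200 and 201 CPM against 74.4 to 129 CPM, and Icam2 read 94.2, 94.1 and 90.2 CPM against 29.4 to 65.4 CPM. These 2 calls were lost without IL6Myc-2 and without IL6Myc-1 respectively, the log2 differences of 1.05 and 1.02 being close to the limit. Mcam (CD146) was at 50.6 ± 2.63 CPM against 9.35 to 41.7 CPM. F11r reached 43.4 CPM, with at most 35.5 CPM elsewhere, and lost its call without IL6Myc-1, as did Fat1, at 28.6 CPM, which IL6Myc-1 had at 0 counts and IL6Myc-5 at 32.3 CPM. Itgb4 differed more between libraries, at 0.571, 0.928 and 2.57 CPM. Itga5 lay exactly at the size limit (log2 difference 1.001) and lost its call without replicate 1 or 3 of IL6Myc-4, without replicate 3 of IL6Myc-1, 1 of IL6Myc-2, 2 or 3 of IL6Myc-3 or 2 or 3 of IL6Myc-5, and without the line IL6Myc-1 or IL6Myc-3. Itga9, a receptor for tenascin and osteopontin, was the member called lower than each line, at 0.0247 CPM against 0.368 to 23.2 CPM, and Itga3 was lower at 0.188 CPM. The integrins best known from myeloma, Itga4 (191 CPM) and Itgb1 (162 CPM), were not called.

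The heavy chains of MHC class I, which present peptides to CD8 T cells or ligands to innate receptors, were split in IL6Myc-4. Of 16 tested heavy chain genes and B2m, 8 were called lower (50%, beside 4.37% of all genes tested) and 2 higher (12.5%, beside 5.28%). Their median log2 difference was -0.99. Of 16 genes for peptide supply, loading and control 1 was called lower (6.25%, near the 4.37% of all genes tested), with a median of 0.05. Without IL6Myc-2, the line with the highest H2-K1, H2-D1 and B2m, 4 heavy chains were called lower and 2 higher. H2-Q7, which codes for the nonclassical Qa-2 antigen, read 3.32, 3.79 and 2.99 CPM against 48.6 to 95.6 CPM, with a median of 71.7 (log2 difference -4.32 ± 0.10, edgeR adjusted p = 1.4e-15). Its close relative H2-Q6 read 18.6, 18.02 and 19.96 CPM against 65.0 to 163 CPM. H2-T10 read 0.643, 0.541 and 0.652 CPM against 1.73 to 9.99 CPM. These 3 were called lower than in each other line, as were 1.37% of all genes tested. Their IL6Myc-4 libraries lay below all others, as did those of 6.72% of all genes tested. Because the H2-Q genes are near-identical copies, reads may have been divided among them in counting, and their single levels are uncertain. The classical gene H2-K1 was lower at 212 ± 5.48 CPM against 294 to 856 CPM, a call lost without IL6Myc-2, and H2-D1, at 686 CPM against 960 to 2214 CPM, had a log2 difference of -0.92, short of a call. H2-Q1, H2-Q2, H2-Q10 and H2-T22 were also called lower, but without IL6Myc-2 H2-Q10 was the 1 of these 4 still called. H2-T22 also lost its call without replicate 2 of IL6Myc-4, and H2-Q1 without replicate 3 of IL6Myc-4 or IL6Myc-5 or replicate 1 of IL6Myc-1 or IL6Myc-3.

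In the other direction, Mr1, which presents vitamin B metabolites to innate-like T cells, was higher at 50.2 ± 0.884 CPM against 8.31 to 37.5 CPM. Cd1d1, which presents lipids to NKT cells, was at 9.75 CPM, below the 12.3 CPM of IL6Myc-3, and was not called without IL6Myc-2. H2-T23, the mouse Qa-1 gene, read 524, 504 and 519 CPM against 195 to 319 CPM, above all other libraries with a log2 difference of 0.97, just under the size of a call. B2m was at 508 CPM (log2 difference -0.51) between IL6Myc-1 at 380 CPM and IL6Myc-3 at 587 CPM. Nlrc5, the transactivator of class I genes, was called lower at 9.39 CPM against 12.6 to 27.8 CPM and lost that call without replicate 1 or 3 of IL6Myc-4, replicate 2 of IL6Myc-1 or IL6Myc-2, or the line IL6Myc-3 or IL6Myc-5. Tap1, at 56.8 CPM, was not called.

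**Figure D3:**
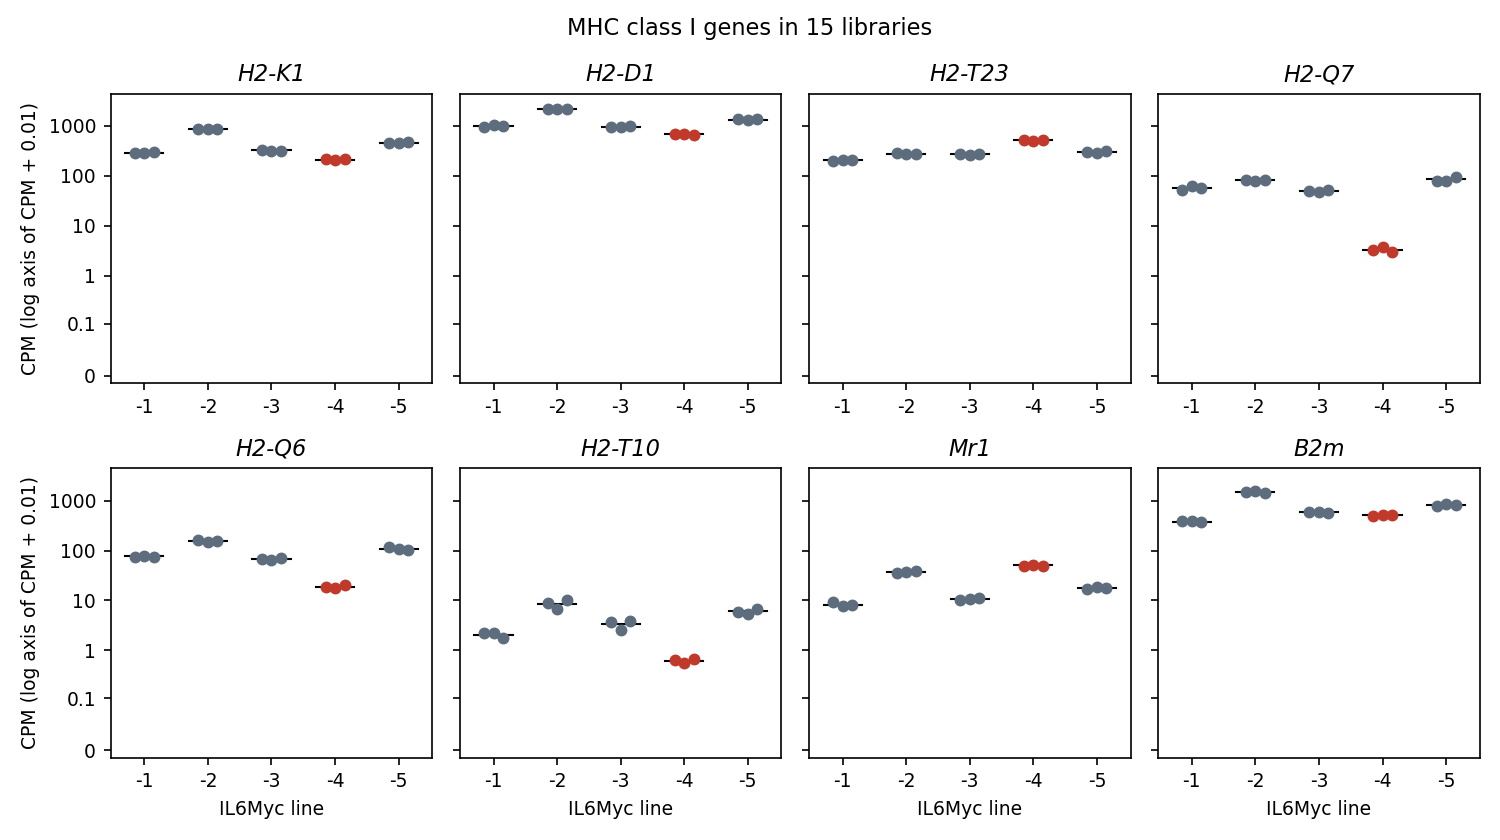
CPM of 8 MHC class I genes (vertical log axis of CPM + 0.01) in the 3 libraries of each line (red for IL6Myc-4, the short bar is the mean on the log scale). H2-Q7, H2-Q6 and H2-T10 lie below every other library in IL6Myc-4, while H2-T23 (516 CPM) and Mr1 (50.2 CPM) lie above them.

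Interferon-induced effectors were called higher in 10 of 21 tested genes (47.6%, beside 5.28% of all genes tested) and lower in 0 (beside 4.37%). Their median log2 difference was 0.84, and 0 of 12 sensors and factors were called. No effector was called against each line singly, and IL6Myc-5 was often as high or higher. Without IL6Myc-1 the count was 7 and without IL6Myc-2 it was 5 of 21. Irgm1, a GTPase of intracellular defence, read 74.0, 75.3 and 72.4 CPM against 15.7 to 39.4 CPM, above all 12 other libraries (log2 difference 1.49, edgeR adjusted p = 4.68e-15). Parp14 was at 20.2 ± 1.08 CPM and Lgals3bp at 125 ± 11.5 CPM, each above all other lines by means and each not called without IL6Myc-1. In contrast Ifi204, at 26.1 CPM, lay between IL6Myc-2 at 0.0522 CPM and IL6Myc-5 at 49.9 CPM. Ifi203, Ifi207, Ifi211, Mx1 and Ifi44 were also called with IL6Myc-5 above IL6Myc-4, and of these 5 Ifi44 alone was still called without IL6Myc-2. The Ifi200 genes are close copies of each other, so that their single levels are uncertain. Gbp7, at 18.9 CPM against 26.2 CPM in IL6Myc-5, lost its call without IL6Myc-1 or without IL6Myc-2. The factors Irf7 (1.64 CPM) and Irf9 (15.3 CPM) were not called.

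The NF-kB list, 45 genes of a pathway often activated in myeloma, had 3 members called higher (6.67%, near the 5.28% of all genes tested) and 5 lower (11.1%, beside 4.37%), and no subunit was called. Tnf was lower than in each line, at 0.0357, 0.193 and 0.192 CPM against 0.229 to 12.5 CPM. The induced inhibitors Nfkbia, at 22.3 ± 1.93 CPM against 27.1 to 250 CPM, and Tnfaip3, at 1.70 CPM against 2.45 to 19.2 CPM, were lower as well. IL6Myc-2 was the highest line for each of these genes, and the calls for Nfkbia, Map3k14 and Ltb were lost without it. Map3k14 was at 2.95 CPM in IL6Myc-4, much as in IL6Myc-1, IL6Myc-3 and IL6Myc-5, and IL6Myc-2 had Ltb at 276 CPM, the other lines at most at 0.190 CPM. Traf5 (7.76 CPM), Tnip2 (21.0 CPM, not called without IL6Myc-3) and Tlr4 (4.60 CPM, below IL6Myc-5 and not called without IL6Myc-1 or IL6Myc-3) were called higher.

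Of 47 tested genes of glycolysis and hypoxia, 2 were called higher and 5 lower, which is 4.26% and 10.6% beside 5.28% and 4.37% of all genes. Hk2, a hexokinase, read 251, 220 and 259 CPM against 30.4 to 59.1 CPM, with a median of 50.7, and was called against each line (log2 difference 2.40 ± 0.06, edgeR adjusted p = 2.03e-15). Aldoc, an aldolase, was higher at 122 ± 6.03 CPM against 26.7 to 65.4 CPM. Ldhb, a lactate dehydrogenase subunit, was lower than in each line at 0.247 ± 0.0950 CPM against 1.15 to 51.0 CPM, whereas Ldha was at 840 CPM within the range of the others. Slc16a3, the lactate exporter MCT4, had 0 counts in IL6Myc-4 but was also at 0.0255 CPM in IL6Myc-1, against 6.73 to 63.2 CPM in the other 3 lines, and its call was lost without replicate 2 of IL6Myc-1. The hypoxia-induced genes Ndrg1 (0.263 CPM against 0.581 to 8.41 CPM, called against each line) and Bnip3 (44.9 CPM against 55.1 to 229 CPM, not called without IL6Myc-1) were lower. Pfkm, at 3.49 CPM, lay above the 1.92 CPM of IL6Myc-1, and its lower call was lost without IL6Myc-2. Hif1a and Slc2a1 were not called.

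The plasma cell list had 5 of 30 members called higher (16.7%, beside 5.28% of all genes tested) and 0 lower (beside 4.37%). All 5 lay outside the secretory machinery, of which 0 of 13 were called. Ly6c1 and Ly6c2, near-identical surface antigen genes whose reads may be shared, averaged 758 and 911 CPM, beside 645 and 762 CPM in IL6Myc-3, and both calls were lost without IL6Myc-1 or without IL6Myc-5. Tnfrsf17, the gene of BCMA, was at 37.0 ± 1.39 CPM, below the 47.5 CPM of IL6Myc-1, and was not called without IL6Myc-2 or IL6Myc-3. Ly6k rested on IL6Myc-2 alone, which was at 0.0169 CPM: at 150 CPM it was the lowest of the 4 lines that expressed it. Ikzf3, at 12.96 CPM against 48.1 CPM in IL6Myc-2, was near the size limit and lost its call without replicate 2 of IL6Myc-4 or IL6Myc-1, replicate 1 of IL6Myc-2, replicate 2 of IL6Myc-3, replicate 3 of IL6Myc-5, or the line IL6Myc-1, IL6Myc-3 or IL6Myc-5. Among 29 tested B cell genes 3 were called higher (10.3%) and 0 lower. Cd79b, the signalling chain of the B cell receptor, read 569, 541 and 581 CPM against 153 to 348 CPM, above all other libraries. Ebf1, an early B cell factor, reached 30.7 ± 1.60 CPM, the next line 17.98 CPM, a call lost without IL6Myc-1, and Bcl11a at 25.3 CPM was below IL6Myc-5 and not called without IL6Myc-2 or IL6Myc-3. Of 8 immunoglobulin constant genes 1 was called (12.5%), Ighg3, and without IL6Myc-2 its log2 difference turned from -1.12 to 0.44. Igha was lower in IL6Myc-4 than in all other libraries, at 17947 ± 932 CPM against 20386 to 42358 CPM, with a log2 difference of -0.68.

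Of the 32 listed markers of T and NK cells 9 passed the filter. Among these 9, 6 were called higher in IL6Myc-4 (66.7%, beside 5.28% of all genes tested) and 1 lower (11.1%, beside 4.37%). In IL6Myc-4 7 of the 32 were at 1 CPM or more, beside 6 to 9 in each other line. The summed level over the 32 genes was 136 to 142 CPM against 36.3 to 81.8 CPM in the other libraries. Of that sum Cd2, an adhesion receptor, gave 81.3 CPM. Cd3g, a chain of the T cell receptor complex, was at 21.96 ± 0.469 CPM, the other lines at 1.43 to 12.5 CPM, and Prf1, the gene of perforin, at 14.8 ± 1.41 CPM against 0.0692 to 3.04 CPM, the latter called against each line. Klrk1 (11.2 CPM, beside 11.8 in IL6Myc-1), Cd3d (3.42 CPM, beside 7.60 in IL6Myc-2) and Cd4 (2.92 CPM, beside 2.77 in IL6Myc-2) were called higher and lost the call without IL6Myc-5 (Klrk1 and Cd3d), IL6Myc-2 (Klrk1) or IL6Myc-1 (Cd4). Ctla4, at 0.801 CPM, was called lower but not without IL6Myc-2. The defining markers Cd3e (0.0119 CPM), Cd8a (0.0257 CPM), Trbc2, Zap70, Gzmb, Nkg7 and Ncr1 (0 counts each) were at or near 0 in IL6Myc-4, and 12 of the 32 markers had 0 counts.

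The complement genes C1qb and C1qc were the 2 of 11 tested myeloid markers called higher (18.2%, beside 5.28% of all genes tested). Of the same 11, 2 were called lower (18.2%, beside 4.37%). C1qb read 495, 462 and 513 CPM against 64.6 to 120 CPM elsewhere (log2 difference 2.62 ± 0.03, edgeR adjusted p = 5.34e-19), and C1qc read 65.3, 64.7 and 67.3 CPM against 6.30 to 21.4 CPM. Both were called against each line, while C1qa, which codes for the chain that completes the C1q protein, had 0 counts. Ly86, a partner of the receptor RP105, was lower than in each line at 10.2 ± 0.431 CPM against 24.6 to 125 CPM, and Tyrobp was lower at 0.340 CPM but not without replicate 1 of IL6Myc-4 or without IL6Myc-2. The summed level of 27 myeloid markers was 785 to 846 CPM against 215 to 498 CPM, and in IL6Myc-4 most of it came from C1qb and C1qc. In IL6Myc-4 10 of the 27 were at 1 CPM or more, beside 9 or 10 in each other line, and 9 had 0 counts. The defining markers Lyz2, Adgre1, S100a8 and Marco were among those with 0 counts, and Csf1r was at 0.0129 CPM. Of the complement list, Cfp, the gene of properdin, was also called higher at 48.4 CPM beside 46.1 CPM in IL6Myc-2. Of the regulators that keep complement off the cell surface 2 were called lower, Cd55 at 0.123 CPM against 0.559 to 6.53 CPM and Cd59a at 33.5 CPM against 59.9 to 80.5 CPM, the latter close to the size limit and not called without replicate 1 or 3 of IL6Myc-4, replicate 2 of IL6Myc-2 or the line IL6Myc-2. Epcam, an epithelial adhesion gene, was at 454 CPM against 126 to 379 CPM, with a log2 difference of 0.89.

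Growth factor genes gave calls in both directions. In the IGF and PI3K list, 4 of 28 tested were higher (14.3%, beside 5.28% of all genes tested) and 3 lower (10.7%, beside 4.37%). Of these, 2 binding proteins moved opposite ways: Igfbp5 read 43.1, 45.0 and 43.8 CPM against 0.802 to 17.6 CPM, higher than in each line, beside the near absence of Igfbp3. Insr, the insulin receptor, reached 6.49 CPM and elsewhere at most 4.39 CPM, not called without IL6Myc-1, and Igf1r at 85.6 CPM was not called. Pik3cg was lower at 67.4 CPM against 110 to 194 CPM, near the size limit and lost without replicate 3 of IL6Myc-4, without IL6Myc-1 or without IL6Myc-3. Among 21 genes of the TGF beta and BMP families 4 were called higher and 0 lower. Bmp4 reached 3.34 ± 0.781 CPM against at most 1.40 CPM and Eng, a co-receptor, at 1.87 ± 0.498 CPM against at most 0.297 CPM, both called against each line. Tgfbr1 averaged 28.5 CPM against at most 15.1 CPM and Tgfb2 at 34.4 CPM beside 34.1 CPM in IL6Myc-1, and both calls were lost without IL6Myc-2. Of 24 Notch and Wnt genes 4 were higher (16.7%) and 2 lower (8.33%). Dll4, a Notch ligand, was higher than in each line at 2.22 ± 0.416 CPM against at most 0.247 CPM, and Notch3 was lower at 0.113 CPM against 0.285 to 10.4 CPM. Eng and Dll4 passed the filter of 1 CPM in 3 libraries through IL6Myc-4 alone, so their higher calls were partly set by the filter.

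In the cell division, survival and stress lists the called shares were mostly near or below those of all genes tested, 5.28% higher and 4.37% lower. Of 47 cell cycle genes 0 were called higher and 2 lower (4.26%), the inhibitor genes Cdkn1c, at 0.0633 CPM, and Cdkn2b, at 3.85 CPM. The Cdkn2b call was lost without replicate 2 or 3 of IL6Myc-4, replicate 1 of IL6Myc-2 or IL6Myc-5, replicate 2 of IL6Myc-3, or the line IL6Myc-1. Ccnd2 was at 1140 CPM, within the range of the other lines. In the BCL2 and death receptor list 2 of 28 were higher (7.14%), Casp6 and Casp12, with no survival or death member called, and Mcl1 and Bcl2l1 were at 645 and 231 CPM. The RAS MAPK list had 3 of 45 called higher (Rasgrp2, Spry1 and, on 1.28 CPM, Rras2, not called without IL6Myc-2) and 1 lower, Rasgrp3, shares of 6.67% and 2.22% that lie near those of all genes tested. In the RASSF family of RAS-binding tumour suppressors 2 of 10 were higher and 1 lower. Rassf3, the lower one, had 0 counts in IL6Myc-4 against 3.70 to 24.7 CPM, at least 104-fold lower than in the nearest line. In the p53 list 2 of 30 were higher (6.67%), Pltp (2.04 CPM) and Trp73 (2.28 CPM), and 1 lower (3.33%), Trp63, which had 1 count in IL6Myc-4. The Trp63 call was lost without replicate 1 or 2 of IL6Myc-4, replicate 3 of IL6Myc-1, replicate 2 of IL6Myc-5, or the line IL6Myc-2 or IL6Myc-3. Cdkn1a, a main p53 target, was at 183 CPM and not called. The stress response list had 0 of 41 called higher and 2 lower (4.88%). These were Ddit3 at 5.46 CPM against 8.03 to 17.5 CPM and Trib3 at 9.59 CPM, the latter not called without IL6Myc-1 or without IL6Myc-2. Both belong to the eIF2 alpha kinase branch, whose 17 tested members had a median log2 difference of -0.36. For 5 of the 17 the IL6Myc-4 libraries lay below all others (6.72% of all genes tested did so). Of 33 myeloma oncogenes and chromatin genes 1 was called (3.03%), Mycl, lower at 0.0256 CPM.

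**Figure D4:**
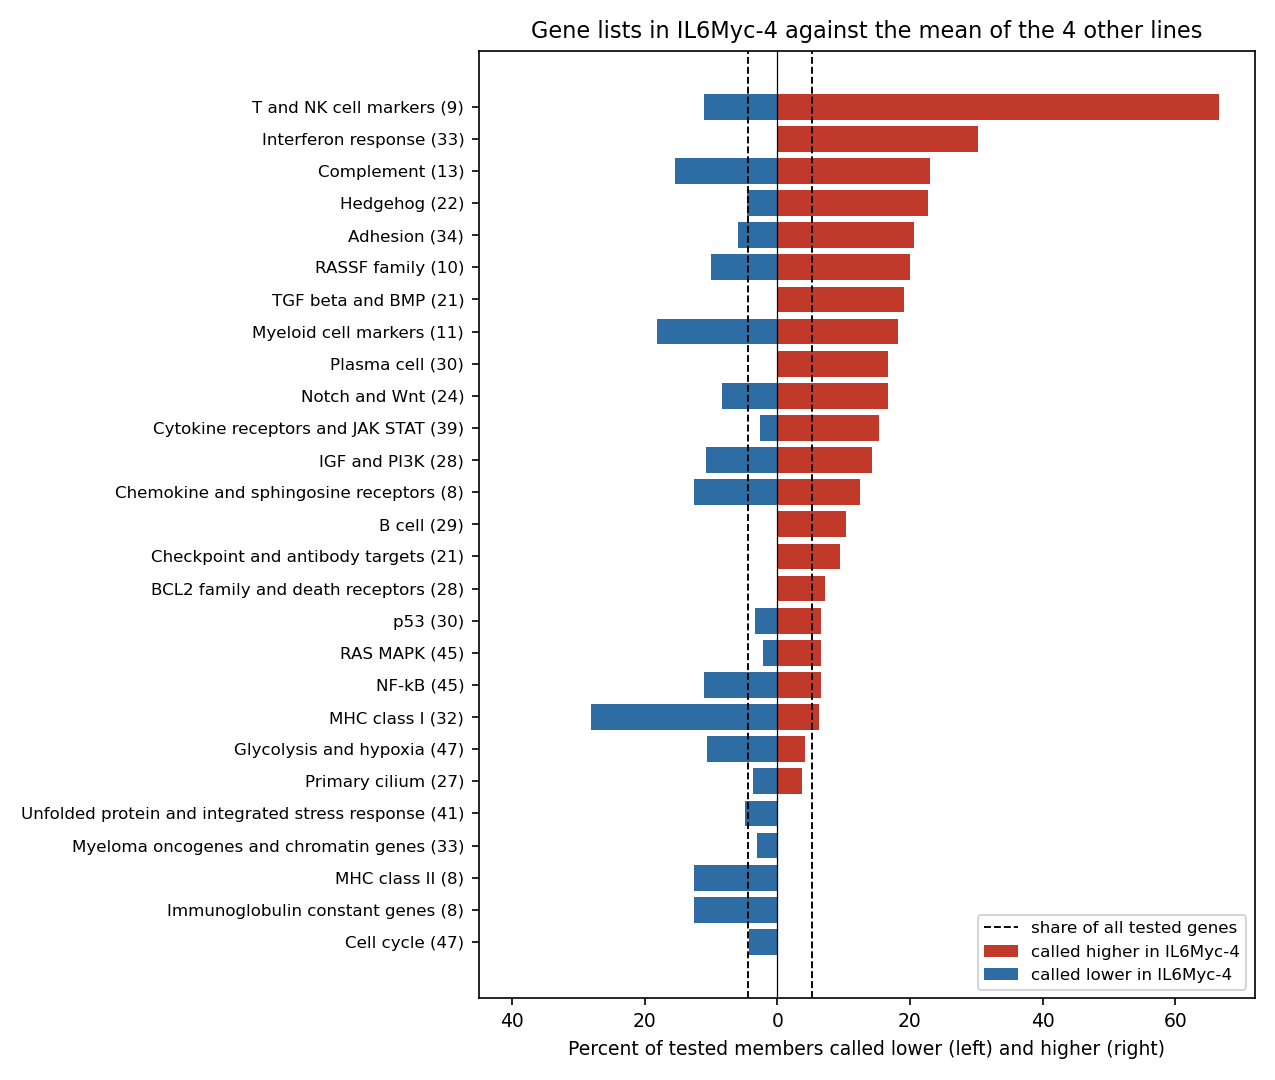
Percent of the tested members of each gene list (number in brackets; lists with at least 8 tested) called lower (blue, left) and higher (red, right) in IL6Myc-4 than the mean of the other lines, with the shares among all genes tested (5.28% higher, 4.37% lower) as dashed lines. T and NK markers (6 of 9) and interferon genes (10 of 33) lead on the right and MHC class I (9 of 32) on the left.

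Most genes beside those with the largest contrasts were not called, as was true of all genes tested (5.28% called higher, 4.37% lower). Of the 30 nearest tested genes around Cyyr1, Gli1, Gli3, Cxcr3 and Ano9 in gene order, 3 were called higher and 1 lower. Sigirr, the gene next to Ano9, which codes for an inhibitory receptor of the IL1 family, was at 29.4 ± 1.19 CPM against 1.82 to 5.66 CPM, higher than in each line. Rtl5, next to Cxcr3, was at 2.96, 2.71 and 6.72 CPM against at most 1.40 CPM, and Adamts1, near Cyyr1, at 66.4 CPM beside 64.9 CPM in IL6Myc-5. Ddit3, near Gli1 on chromosome 10, was the gene called lower. Around Rnf130, Igfbp3, Lratd2, Dnajc6 and Tspan5, 1 of 30 neighbours was called higher, Nacad on 1.10 CPM, and 0 lower.

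Among the autosomes, chromosome 14 had the highest median difference. Its 375 tested genes had a median log2 difference of 0.36, with 84.3% of them above 0. Of these genes 24 were called higher (6.40%, beside 5.28% of all genes tested) and 8 lower (2.13%, beside 4.37%), and chromosomes 15, 16 and X had larger shares called higher, at 9.11%, 7.22% and 6.96%. The median was above 0 against each line, at 0.54 against IL6Myc-1, 0.24 against IL6Myc-2, 0.47 against IL6Myc-3 and 0.12 against IL6Myc-5. The difference ran along the whole chromosome: split into 3 parts of 125 genes in gene order, the medians were 0.26, 0.39 and 0.41. The next highest autosome was chromosome 15 at 0.11, which at 0.12 was level with chromosome 14 against IL6Myc-5, and the lowest was chromosome 17 at -0.14, which holds the MHC genes. The medians of chromosomes 4, 5, 6, 11, 15 and 17 also kept 1 sign against all 4 lines. Gli1, Ptch1, Gli3 and Cxcr3 lie on chromosomes 10, 13, 13 and X. The Y chromosome, with 5 genes tested, had a higher median, 4.28, and 4 of them were called higher. Its transcripts were present in IL6Myc-4, with Ddx3y at 25.5 CPM and Eif2s3y at 42.1 CPM, as in IL6Myc-2 and IL6Myc-3, and had 0 counts in IL6Myc-1 and IL6Myc-5, so that their calls as higher rest on those 2 lines.

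**Figure D5:**
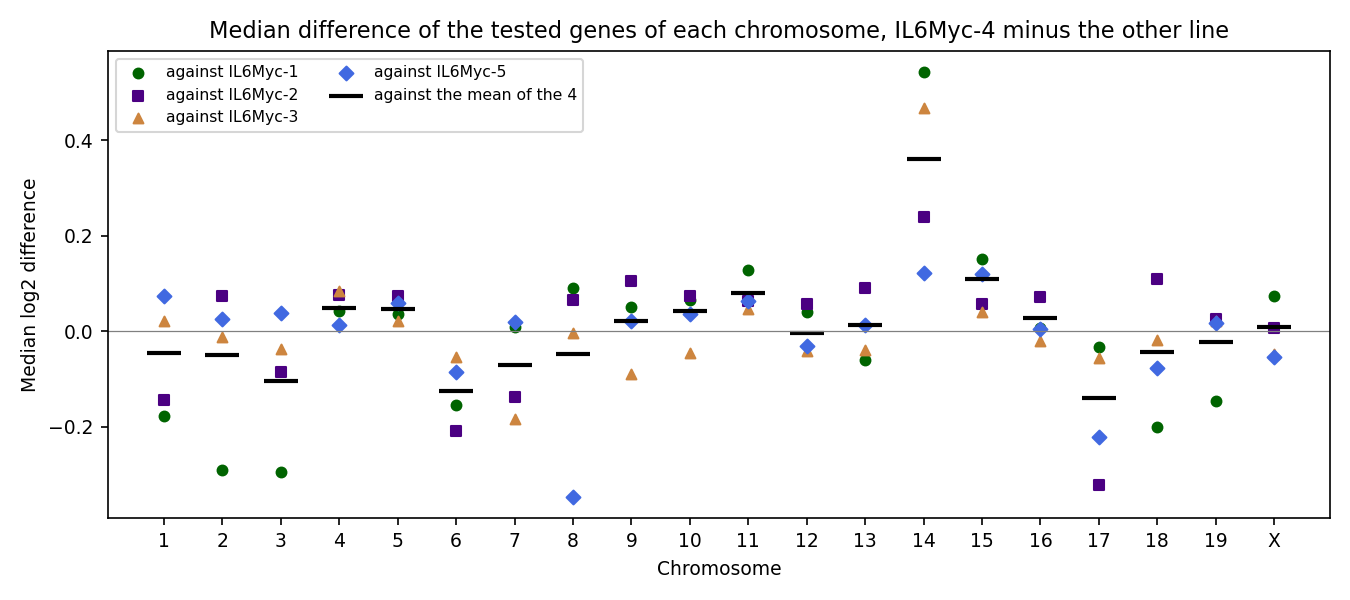
Median log2 difference of the tested genes of each autosome and the X chromosome (horizontal axis; Y is not drawn) between IL6Myc-4 and each other line (coloured points) and the mean of the 4 (black bars). Chromosome 14 has the highest black bar, at 0.36, with all 4 points above 0, and the lowest is chromosome 17 at -0.14.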

How the data were processed

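The libraries were made with a stranded total RNA kit (TruSeq) from RNeasy-extracted RNA, per the labels' protocols. The submitters' processing notes list Trim Galore (0.4.0), DESeq2 and GRCm39. How reads were aligned and counted, and whether strand was used, is not stated in those sources, so antisense partners and overlapping genes may share reads. The deposited table is named for TPM, but the deposited values behave as estimated counts that the authors did not scale to a common total: library totals run from 19068543 to 41165599, and 30.8% to 54.3% of the values above 0 and under 1.5 lie within 0.02 of 1. They were rounded to whole numbers. A further deposited column, the mean of the libraries to within 6e-05, was not used. Of 32434 entries, 99.4% matched a mouse symbol of GRCm38.p6, from which chromosomes and gene order were also taken.

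Genes reaching 1 CPM in 3 or more libraries were fitted in edgeR 4.0.16 (R 4.3.3, TMM, quasi-likelihood) to all 15 libraries with line as factor, and p-values were adjusted by Benjamini-Hochberg over 11773 genes. Libraries of a line differed by more than sampling noise (chi-square per degree of freedom 4.54 to 20.0) and were kept as 3 replicates. Replicate numbers did not pair libraries across lines. Alternatives were DESeq2 1.42.0, its size factors in edgeR, limma 3.58.1 on log2(CPM + 1) and log2(CPM + 5), other filters, a replicate block, a log2 limit of 2, and leaving out each library or line. The fits were tested on simulated data. The rule for named genes took the 15 highest and 15 lowest genes called against each line, leaving aside antigen receptor segments, predicted genes and pseudogenes, and added list members, genes seen in IL6Myc-4 alone or missing from it, and neighbours. The comparison, the 30 lists and the rule were chosen with earlier results of these data known. Where a line had 0 counts, the fitted log2 difference depends on edgeR's prior count, and the text gives levels. A gene under 1 CPM in every other line passed the filter only through the IL6Myc-4 libraries, where it was high. Its higher call, and the list counts that include it, follow partly from the filter.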

Additional observations from a re-analysis of the deposited data

How the results depend on the processing

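Depth, at 19068543 counts or more a library, limited only transcripts near 0, and the 3 technical replicates of a line cannot show variation between lines. The counts of genes higher, lower, singly higher and singly lower in IL6Myc-4 were 622, 514, 156 and 161. The replicate block gave 622, 516, 158 and 162. Because same-numbered libraries of different lines did not deviate together (r of -0.0841 to 0.110), these numbers were not taken as pairs. Leaving out 1 replicate at a time gave 616 to 637, 497 to 516, 149 to 160 and 151 to 163. With edgeR on DESeq2 size factors or the DESeq2 Wald test each count stayed within 1.5 times. On log2(CPM + 1) limma gave 360 higher, 308 lower and 60 singly lower, and on log2(CPM + 5) 172, 93, 63 and 16, a pseudocount that shrinks low genes. With no low-count filter 1054 genes were higher. With a filter of 5 CPM, which tests fewer genes, the counts were 368, 277, 95 and 83, and with a log2 limit of 2 they were 223, 227, 56 and 77. Leaving out a line removes 1 of the 4 comparisons that the single call asks for, and both singly counts rose for every line left out. They ran from 180 to 267 higher, the most without IL6Myc-2, and from 197 to 279 lower, the most without IL6Myc-1. Why the rise differed between lines was not tested. Of 150 called genes among the lists and named genes, 36 lost their call on log2(CPM + 1) and 80 on log2(CPM + 5). Without IL6Myc-2 the log2 difference turned to 0.44 for Ighg3, -0.28 for Ly6k and 0.10 for Map3k14, since that line set the mean of the others.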
